A study of Mus musculus with 8 samples.

Results

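The genes described are the NF-kB subunits and the inhibitors that NF-kB itself induces, in bulk RNA sequencing of mouse neutrophils linked by the labels to B16 tumors, a mouse melanoma line. The members were chosen by gene symbol, and all 10 of 10 were found among the 18187 gene symbols of the table: the subunit genes Nfkb1, Nfkb2, Rel, Rela and Relb, and the inhibitor and response genes Nfkbia, Nfkbie, Nfkbiz, Tnfaip3 and Tnfaip2. The study compared 3 libraries labelled aOX40 (replicates 1 to 3) with 5 labelled IgG (replicates 2 to 6). aOX40 is read here as an antibody to OX40, the costimulatory receptor encoded by Tnfrsf4, with IgG as its control. The labels give no strain, age, dose, time, tumor size or way of isolating the cells, and do not say whether each library came from its own animal, so a p-value here reflects only library-to-library spread, which may be technical. The titles name the tumor and its treatment, and the cell type field names neutrophils. In a bulk library, fewer cells of a type and less RNA per cell cannot be told apart.

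NF-kB proteins form dimers that wait in the cytoplasm, bound by inhibitors of the IkB family. Signals from TNF, interleukin and Toll-like receptors activate the IkB kinase complex, the inhibitors are degraded and the dimers enter the nucleus. The products of Rela, Rel and Relb can activate transcription, while Nfkb1 and Nfkb2 encode precursors whose trimmed forms bind DNA and whose untrimmed forms act as inhibitors. Nfkb2 and Relb are the core of the non-canonical branch, which is driven by receptors of the TNF receptor family and the kinase encoded by Map3k14. NF-kB induces several of its own inhibitors, which closes a feedback loop, and in neutrophils the pathway is known for driving cytokine and chemokine genes and survival.

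Upstream sequences are given for the members whose RefSeq promoter windows hold a match to the kappa-B consensus, the DNA motif bound by NF-kB. RefSeq promoters (GRCm38.p6) were listed for 7 of the 10 members, and the 250 bases before each start were searched on both strands for the 10-base consensus; overlapping matches are shown as a single stretch. A match was found for 5 of these 7 genes (Nfkb2, Rel, Nfkbia, Nfkbie and Tnfaip3), while 4.46% of all 27025 genes with a listed promoter held a match. The windows of Rela and Tnfaip2 held no match, and Nfkb1, Relb and Nfkbiz were not searched. Capitals mark the match, each sequence runs 5′ to 3′ on the strand of the gene, and Nfkb2 and Tnfaip3 are shown as 30 bases around a match, because their windows run into annotated exons: 250 and 234 of the 250 bases for the first and last listed starts of Nfkb2, and 110 for Tnfaip3. A further match of Tnfaip3 and 2 further stretches of Nfkb2 are not printed.
Nfkbia, chr12:55492648-55492897, minus strand: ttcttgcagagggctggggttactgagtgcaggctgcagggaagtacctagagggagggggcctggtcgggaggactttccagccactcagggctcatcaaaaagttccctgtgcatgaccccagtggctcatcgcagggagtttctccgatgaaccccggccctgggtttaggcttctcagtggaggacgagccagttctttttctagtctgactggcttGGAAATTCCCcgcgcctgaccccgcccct
Nfkbie, chr17:45555450-45555699, plus strand: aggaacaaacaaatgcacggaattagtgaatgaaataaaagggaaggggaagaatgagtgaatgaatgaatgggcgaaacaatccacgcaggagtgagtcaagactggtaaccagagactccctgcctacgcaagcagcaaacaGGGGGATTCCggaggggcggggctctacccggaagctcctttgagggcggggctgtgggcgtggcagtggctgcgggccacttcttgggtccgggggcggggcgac
Rel, chr11:23770971-23771219, minus strand: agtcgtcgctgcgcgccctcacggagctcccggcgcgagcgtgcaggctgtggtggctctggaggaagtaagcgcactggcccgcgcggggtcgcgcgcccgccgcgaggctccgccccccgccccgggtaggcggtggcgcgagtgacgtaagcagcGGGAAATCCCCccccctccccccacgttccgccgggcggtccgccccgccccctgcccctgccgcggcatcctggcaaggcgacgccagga
Nfkb2, first listed start, chr19:46304689-46304718, plus strand: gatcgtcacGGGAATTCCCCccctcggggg
Nfkb2, last listed start, chr19:46305695-46305724, plus strand: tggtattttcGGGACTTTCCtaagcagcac
Tnfaip3, chr10:19015411-19015440, minus strand: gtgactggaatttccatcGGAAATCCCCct
The Nfkbia match begins 29 bases before the start and the Nfkbie match 106 bases before it. A match is a description of the sequence and not a measured binding site.

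Sequencing depth ran from 69.6 to 73.5 M estimated counts per library in aOX40 and from 52.7 to 63.2 M in IgG (M, mega), without overlap. All 10 members passed the filter on low counts. Levels are CPM, counts per M counts of a library, scaled with TMM factors. Differences are log2 fold changes of aOX40 against IgG from edgeR's quasi-likelihood test, with Benjamini-Hochberg adjusted p-values (all 13278 tested genes) and a threshold of 0.05. The TMM factors ran from 1.07 to 1.27 in aOX40 and from 0.874 to 0.984 in IgG, also without overlap. Depth and scaling thus differed by group and cannot be told apart from the treatment. The summed level of 15 neutrophil markers ran from 20790 to 30200 CPM in aOX40 and from 21030 to 33130 CPM in IgG. The summed level of 11 listed monocyte and macrophage markers ran from 1084 to 1527 CPM in aOX40 and from 1403 to 2037 CPM in IgG, while 8 of the 10 tested were higher in aOX40 on the log2 scale, with a median of 0.49; for the 7 T and NK cell markers in the table it was 17.4 CPM in aOX40 replicate 1 and between 1.21 and 3.70 CPM in the other 7 libraries, and for the 1 B cell marker at most 0.861 CPM. The 6 dendritic cell markers summed to between 11.3 and 20.5 CPM in aOX40 and between 22.9 and 42.4 CPM in IgG, and the 4 fibroblast and endothelial markers to between 4.45 and 8.45 CPM and between 8.92 and 59.9 CPM. The 7 melanoma markers summed to at most 15.4 CPM in any library. Of the monocyte and macrophage markers, Csf1r was at 39.9, 38.0 and 75.6 CPM in aOX40 and at 4.51, 16.3, 25.1, 24.2 and 17.5 CPM in IgG, without overlap (log2 fold change 1.55, not called). All 13 mitochondrial mRNAs had a log2 fold change above 0 (median 0.76, 0 called), and their sum ran from 914.7 to 1200 CPM in aOX40 and from 571 to 928.7 CPM in IgG. Of the neutrophil markers 1 of 15 was called, Fcgr3, which was lower in aOX40. None of the markers of other cell types was called, and the part of these lists in the results was not tested.

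None of the members passed the test. The count was 0 of 10 with edgeR, where 2.41% of all genes tested were called (0.821% higher and 1.59% lower in aOX40), and at an unadjusted p below 0.05 it was 3 of 10 (Nfkb2, Tnfaip3 and Nfkb1), where the share of all genes was 17.8%. DESeq2 called these 3 members and 16.1% of the genes to which it gave an adjusted p, while limma voom called 0 members and 5.45% of all genes. With robust dispersions edgeR called 0 members and 2.45% of all genes, and with its newer quasi-likelihood adjustment (legacy off) 0 members and 5.65% of all genes. The log2 fold change was above 0 in 8 of 10 members, against 52.1% of all genes, and the median was 0.45 against 0.05 over all genes. Without aOX40 replicate 3, 5 of 10 members were above 0, against 51% of all genes, and the median of the members was 0.01 against 0.03 over all genes, so the upward lean rested on that library; with any other library left out, 7 to 9 members were above 0. The log2 fold change was at least 0.9 in size in 3 of 10 members (Nfkb2, Tnfaip3 and Nfkbie), against 33.9% of all genes.

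**Figure D1:**
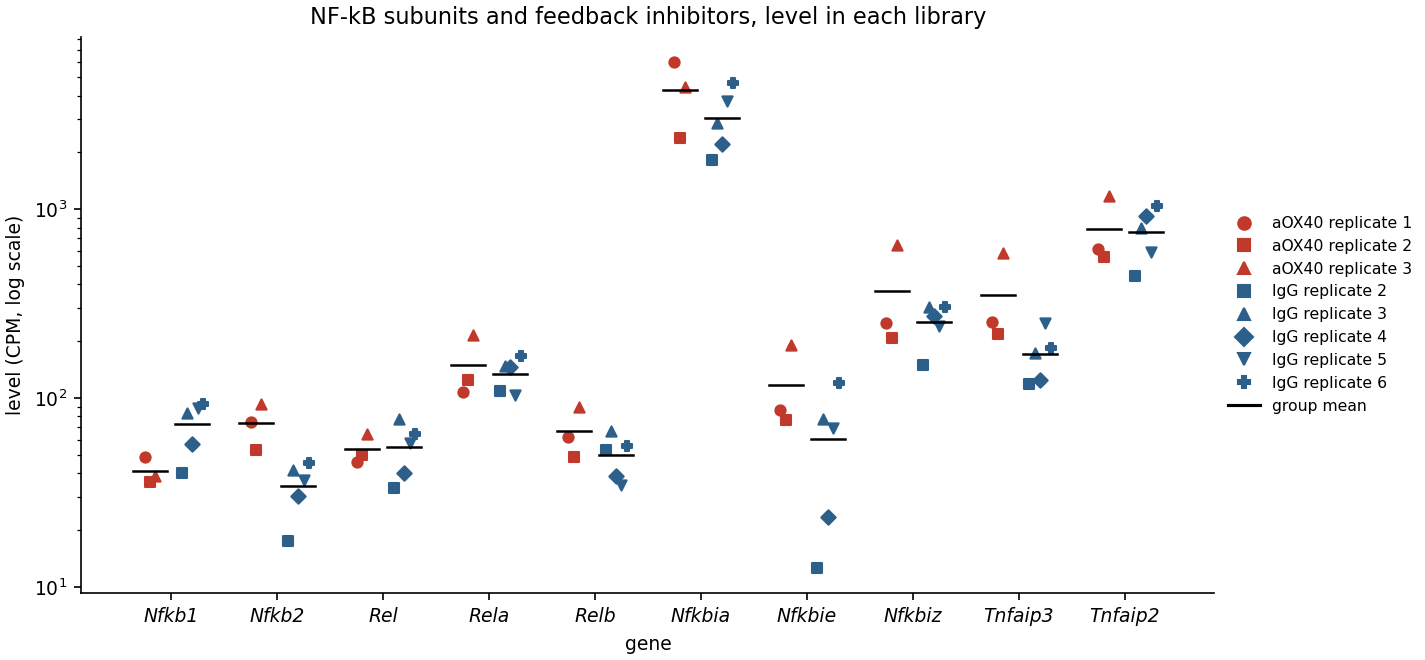
Level of each member in CPM (log axis) in the 3 aOX40 libraries (red) and the 5 IgG libraries (blue); symbols give the replicate and black bars the group means. Only Nfkb2 has all 3 aOX40 libraries above every IgG library, and aOX40 replicate 3 is the highest point of 7 of the 10 genes.

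Among the subunits, the Nfkb2 level separated the groups. Nfkb2 (chromosome 19, 46304320 to 46312385, plus strand, GRCm38) was at 74.8, 52.8 and 92.7 CPM in aOX40 replicates 1 to 3 and at 17.4, 41.8, 30.2, 36.7 and 45.1 CPM in IgG replicates 2 to 6. All 3 aOX40 libraries lay above all 5 IgG libraries, with means of 73.4 ± 20.0 (SD, n = 3) and 34.3 ± 10.97 CPM (SD, n = 5). The log2 fold change was 1.10 (SE 0.31, edgeR adjusted p = 0.104), so the difference did not pass. Nfkb2 was the only one of the 10 members without overlap between the groups, a pattern seen in 16% of all genes tested, and in 8.22% with the aOX40 libraries above. Nfkb2 shares exon sequence with Psd, a gene on the other strand that was at 0.496 and 1.25 CPM in the 2 groups.

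Nfkb1 went the other way. Nfkb1 (chromosome 3, 135584655 to 135691547, minus strand) was at 48.6, 36.0 and 38.6 CPM in aOX40 and at 40.2, 83.4, 57.0, 88.7 and 93.1 CPM in IgG. IgG replicate 2, at 40.2 CPM, lay among the aOX40 libraries, and the other 4 IgG libraries lay above all of them. The log2 fold change of -0.82 (SE 0.30) did not pass (edgeR adjusted p = 0.186), and was -0.54 with total counts alone.

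The activating subunits differed less between the groups than between libraries. Rel, which encodes the c-Rel subunit (chromosome 11, 23736847 to 23770970, minus strand), was at 45.8, 49.96 and 64.6 CPM in aOX40 and at 33.4, 77.5, 40.2, 58.1 and 64.5 CPM in IgG. Its aOX40 libraries lay inside the IgG range, with a log2 fold change of -0.03 (SE 0.29) that changed sign in 7 of 18 alternative analyses. Rela, the main activating subunit of the canonical branch (chromosome 19, 5637483 to 5648130, plus strand), was at 108, 125 and 217 CPM in aOX40 and at 109, 147, 145, 104 and 168 CPM in IgG. Only aOX40 replicate 3 lay above the IgG range, and the log2 fold change was 0.16 (SE 0.27), or -0.20 without that library. Relb, the partner of Nfkb2 in the non-canonical branch (chromosome 7, 19606217 to 19629438, minus strand), was at 62.1, 48.9 and 89.4 CPM in aOX40 and at 52.8, 67.0, 38.7, 34.5 and 55.7 CPM in IgG. Again aOX40 replicate 3 alone lay outside the IgG range, and the log2 fold change was 0.43 (SE 0.28, edgeR adjusted p = 0.495), or 0.16 without it and 0.71 with total counts alone.

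Because Nfkb2 was higher and Nfkb1 lower, the ratio of the pair separated the groups widely. This ratio was chosen after the values were seen, it does not depend on the scaling of the libraries, and it is given without a test. Nfkb2 CPM divided by Nfkb1 CPM was 1.54, 1.46 and 2.40 in aOX40 replicates 1 to 3 and 0.433, 0.502, 0.530, 0.413 and 0.485 in IgG replicates 2 to 6. The 5 IgG libraries lay close together around a mean of 0.473 ± 0.049 (SD, n = 5), although their Nfkb1 and Nfkb2 levels each differed more than 2-fold between libraries, and the aOX40 mean was 1.80 ± 0.52 (SD, n = 3). The lowest aOX40 ratio was 2.76 times the highest IgG ratio. On the log2 scale the group means were 0.81 ± 0.39 and -1.09 ± 0.15, a difference of 1.90 that stayed between 1.67 and 2.03 when any 1 library was left out. Of the other 13277 genes tested, 21% also had a ratio to Nfkb1 that was higher in every aOX40 library, and 1.67% had a gap at least as wide as that of Nfkb2.

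**Figure D2:**
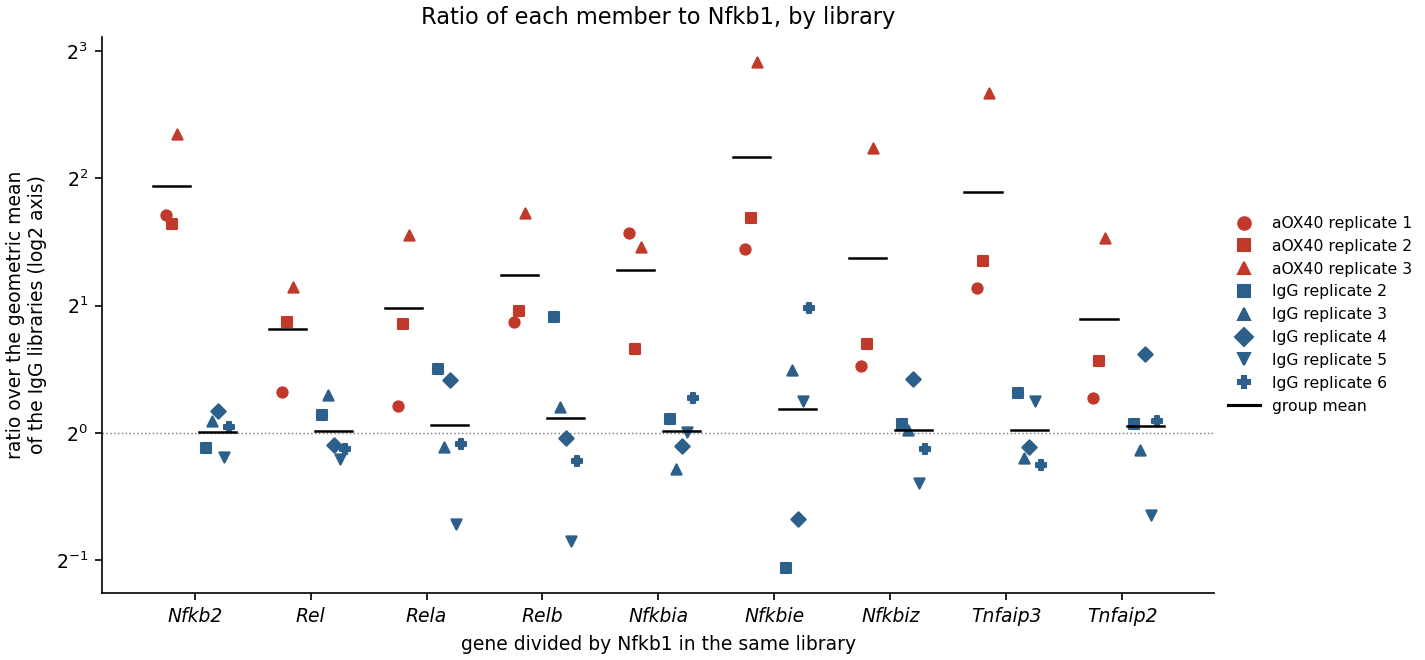
Ratio of each of the other 9 members to Nfkb1 in the same library, divided by the geometric mean of that ratio over the 5 IgG libraries (log2 axis); red symbols are aOX40, blue symbols IgG, black bars group means and the dotted line is 1. For Nfkb2 the IgG points sit together and the aOX40 points stand clear of them, while for Rela, Relb and Tnfaip2 the groups overlap.

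Over all 45 pairs of members, the ratio did not overlap between the groups in 11, against 16.4% of all pairs among the 10110 genes above 0 in every library. Of these 11, 6 had Nfkb1 and 4 had Nfkb2 as a partner, the pair of both counted under each. Relative to Nfkb1, the members Nfkb2, Rel, Nfkbia, Nfkbie, Nfkbiz and Tnfaip3 all had aOX40 ratios above the whole IgG range. The ratio of Nfkbia to Nfkb1 was 124, 65.8 and 115 in aOX40 and 45.1, 34.2, 38.9, 41.9 and 50.4 in IgG. Relative to Nfkb2, the members Rel, Rela, Nfkb1 and Tnfaip2 were lower in all 3 aOX40 libraries, as were 36% of the other genes, so that a low ratio to Nfkb2 was common. The Rela to Nfkb2 ratio was 1.44, 2.37 and 2.34 in aOX40 and 6.24, 3.52, 4.81, 2.82 and 3.72 in IgG. The remaining non-overlapping ratios were Tnfaip3 to Rel, higher in aOX40, and Tnfaip2 to Nfkbie, lower in aOX40.

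Of the inhibitors, Nfkbia, which encodes IkB-alpha, the inhibitor that is degraded and remade most rapidly, was by far the most abundant. Nfkbia (chromosome 12, 55489410 to 55492647, minus strand) was at 6018, 2373 and 4429 CPM in aOX40 and at 1812, 2850, 2215, 3722 and 4686 CPM in IgG. The groups overlapped, with aOX40 replicate 1 alone above the IgG range, and the log2 fold change was 0.48 (SE 0.37, edgeR adjusted p = 0.573). It was 0.16 without aOX40 replicate 1, 0.78 without aOX40 replicate 2 and 0.74 with total counts alone. Nfkbie, which encodes IkB-epsilon (chromosome 17, 45555703 to 45563169, plus strand), was at 86.5, 76.2 and 191 CPM in aOX40 and at 12.7, 77.2, 23.4, 69.3 and 121 CPM in IgG. Its spread was the widest of the members: IgG replicates 2 and 4 were far below the other 3 IgG libraries, aOX40 replicate 3 was far above the other 2 aOX40 libraries, and the log2 fold change of 0.96 had an SE of 0.65. Without aOX40 replicate 3 it was 0.43. Nfkbiz encodes IkB-zeta, a nuclear IkB protein that acts on a subset of NF-kB target genes (chromosome 16, 55811375 to 55838899, minus strand). It was at 249, 208 and 648 CPM in aOX40 and at 150.05, 302, 273, 241 and 304 CPM in IgG. Without aOX40 replicate 3 the log2 fold change of Nfkbiz turned from 0.54 (SE 0.38) to -0.15, so its direction rested on that library.

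Tnfaip3 encodes a ubiquitin-editing enzyme that shuts off signalling upstream of the IkB kinases (chromosome 10, 19000910 to 19015657, minus strand). It was at 254, 218 and 583 CPM in aOX40 and at 119, 173, 125, 250.5 and 185 CPM in IgG. IgG replicate 5 lay above aOX40 replicate 2 and just below aOX40 replicate 1, and the other 4 IgG libraries lay below all 3 aOX40 libraries. Its log2 fold change was 1.05 (SE 0.36, edgeR adjusted p = 0.169), and 0.48 without aOX40 replicate 3. Tnfaip2, a TNF-induced gene that does not act as an inhibitor of NF-kB (chromosome 12, 111442469 to 111455018, plus strand), was at 619, 560.4 and 1171 CPM in aOX40 and at 444, 800, 919, 597 and 1044 CPM in IgG. aOX40 replicate 3 lay above the IgG range and IgG replicate 2 below the aOX40 range, while the other libraries overlapped. The log2 fold change was 0.04 (SE 0.33), and it was -0.36 without aOX40 replicate 3. Tnfaip2 shares exon sequence with Gm40578 on the other strand, which was at 0.728 and 0.678 CPM.

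Single libraries moved many members together. Of the aOX40 libraries, replicate 3 was the highest in 8 of 10 members, against 32.7% of all genes tested, and over all 8 libraries it was the highest in 7 of 10, against 13.6% of all genes. Among the IgG libraries, replicate 2 was the lowest in 8 of 10 members, against 30.1% of all genes, and over all 8 libraries it was the lowest in 7 of 10, against 20.5%. The exceptions in aOX40 were Nfkb1 and Nfkbia, which were highest in replicate 1. In log2 CPM, Nfkbie lay 1.60 above its own mean in aOX40 replicate 3 and 2.31 below it in IgG replicate 2, while Rel lay 0.30 above and 0.65 below in these libraries. A list of 15 immediate early and heat shock genes was used as markers of tissue handling. Their summed level was 10840, 11550 and 19040 CPM in aOX40 replicates 1 to 3 and 11840, 14860, 18770, 10470 and 16000 CPM in IgG replicates 2 to 6. The sum was highest in aOX40 replicate 3 as well, and its part in the level of the members was not tested. Of these 15 genes, 1 was called, lower in aOX40, where 2.41% of all genes tested were called.

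**Figure D3:**
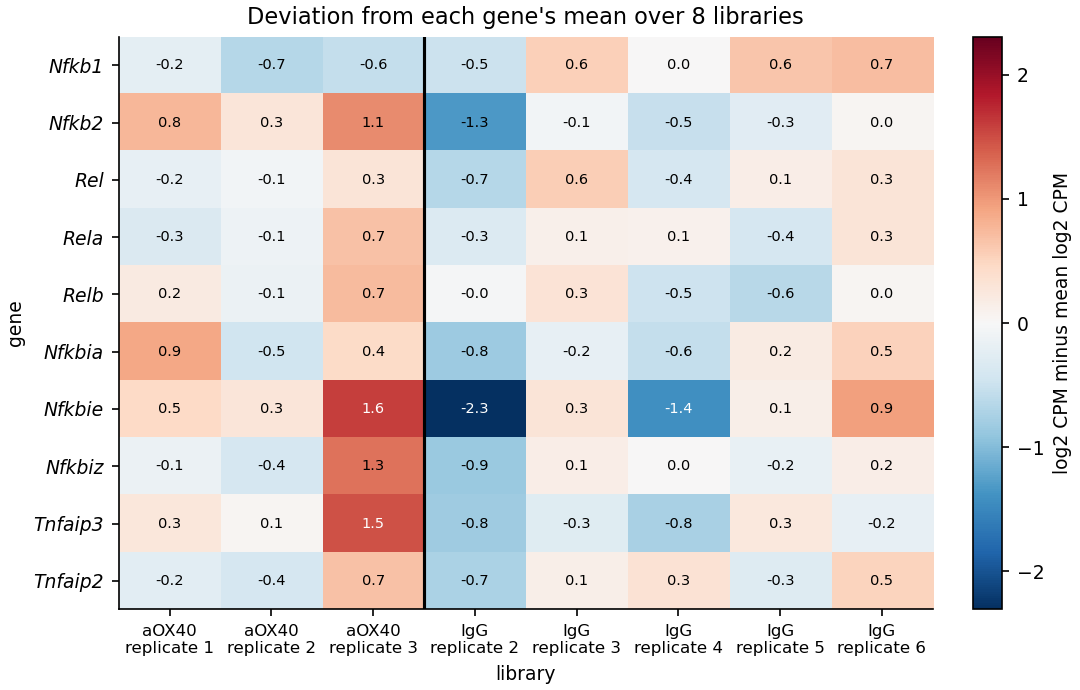
Log2 CPM of each member minus its mean over the 8 libraries (color and printed value), with the 3 aOX40 libraries left of the black line and the 5 IgG libraries right of it. The column of aOX40 replicate 3 is above 0 for 9 of the 10 members, the column of IgG replicate 2 is below 0 for all 10, and the Nfkb1 and Nfkb2 rows run in opposite directions between the groups.

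Levels of different genes were compared per length, as CPM per kilobase of annotated exon (RPKM). The length is the union of exons over all annotated transcripts of a gene. It was 12.061 kilobases over 10 transcripts for Nfkb1, 4.584 over 8 for Nfkb2 and 7.466 over 1 for Rel. Where the expressed transcripts are shorter than this union, the level per length is understated. In IgG, Nfkbia was at a mean of 1899 RPKM and every other member was at most at 209.5 RPKM in any library. Tnfaip2 followed at 153 RPKM and Nfkbiz at 50.6 RPKM; Rela at 43.8, Tnfaip3 at 23.6 and Nfkbie at 19.9 RPKM formed the middle; Relb stood at 12.8, Nfkb2 at 7.47, Rel at 7.33 and Nfkb1 at 6.01 RPKM. From Nfkbiz down, the range of each member over the IgG libraries overlapped that of the next member in this order, so these neighbours were not set apart beyond their spread. In aOX40 the order began with the same 4 genes and ended with Relb at 17.2, Nfkb2 at 16.02, Rel at 7.16 and Nfkb1 at 3.41 RPKM, where the ranges of Nfkb2, Rel and Nfkb1 did not overlap. With these lengths the ranges of Nfkb2, Rel and Nfkb1 overlapped in IgG and not in aOX40, and the order of different genes depends on the lengths used.

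The genes with the most similar profile over the 8 libraries were listed for 1 subunit and 1 inhibitor. Among 4941 other tested genes with a mean of at least 10 CPM, the closest to Nfkb1 were Ss18l2, Fbxo11 and Prpf4b, with a root mean square difference of centred log2 CPM of 0.16, 0.19 and 0.20. The closest to Nfkbia were the protease inhibitor gene Slpi at 0.16, the tyrosine phosphatase gene Ptpn11 at 0.19 and Lrrc25 at 0.22. None of these 6 genes passed the test between the groups.

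The kinases and adaptors upstream of the members were mostly not called. Of 28 listed kinases, ubiquitin ligases and adaptors that activate NF-kB, 1 was higher, 1 was lower and 26 did not pass (all genes tested: 0.821% higher, 1.59% lower), with a median log2 fold change of 0.11 against 0.05 over all genes. Ikbke, an IkB kinase-related kinase that is itself induced by inflammatory signals, rose and was at 58.6, 61.5 and 83.9 CPM in aOX40 and at 11.7, 15.5, 4.09, 17.8 and 16.1 CPM in IgG. Every aOX40 library was above every IgG library, with a log2 fold change of 2.38 (SE 0.41, edgeR adjusted p = 0.0298). Irak2, a kinase of the interleukin and Toll-like receptor pathway, fell and was at 273, 281 and 327 CPM in aOX40 and at 686, 487, 518, 472 and 516 CPM in IgG. The groups did not overlap, and the fold change on the log2 scale was -0.87 (SE 0.18, edgeR adjusted p = 0.0428). Ikbke was called in 10 of 18 alternative analyses and Irak2 in 7. With total counts alone Irak2 was at -0.56 and not called. The Irak2 call was lost with any 1 library left out, where 0 to 187 of all genes tested were called, against 320 in the main test. The subunits of the IkB kinase complex did not pass: Chuk had a log2 fold change of -0.13 (SE 0.35), Ikbkb of -0.25 (SE 0.28) and Ikbkg, the regulatory subunit, of 1.51 (SE 0.61). Map3k14, the kinase of the non-canonical branch, was at 12.8, 25.8 and 15.4 CPM in aOX40 and at 25.6, 24.9, 29.3, 26.4 and 12.3 CPM in IgG, and its log2 fold change of -0.40 (SE 0.34) did not pass and ran from -0.75 to -0.06 over the alternatives.

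Of 21 other IkB-type proteins and negative regulators, 1 was higher, 0 were lower and 20 did not pass (all genes tested: 0.821% higher, 1.59% lower), with a median log2 fold change of 0.24 against 0.05 over all genes. The gene that rose was Irak3, a kinase-like protein that blocks signalling from interleukin and Toll-like receptors. Irak3 was at 204, 180.4 and 175 CPM in aOX40 and at 36.3, 49.6, 24.4, 45.4 and 61.2 CPM in IgG, and all 3 aOX40 libraries lay far above the IgG range (log2 fold change 2.11, SE 0.27, edgeR adjusted p = 0.0217). It was called in 15 of 18 alternative analyses. In the other 3 (the replicate number as a block, without aOX40 replicate 2 and without aOX40 replicate 3) no gene at all was called. The other IkB-type genes did not pass: Nfkbib had a log2 fold change of 0.07 (SE 0.28), Nfkbid of 0.65 (SE 0.34) and Bcl3, a nuclear IkB-type protein that binds the products of Nfkb1 and Nfkb2, of 0.24 (SE 0.34).

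Of 18 tested receptors upstream of NF-kB (of 20 listed), 0 were higher, 1 was lower and 17 did not pass (all genes tested: 0.821% higher, 1.59% lower), with a median log2 fold change of 0.13 against 0.05 over all genes. The gene that fell was Il18rap, a chain of the receptor for the interleukin encoded by Il18, at 84.7, 89.2 and 74.0 CPM in aOX40 and at 146, 128, 159, 169 and 155 CPM in IgG. The aOX40 libraries lay below the whole IgG range (log2 fold change -0.87, SE 0.16, edgeR adjusted p = 0.0363). Il18rap was called in 8 of 18 alternatives, and with total counts alone the log2 fold change was -0.56 and not called. Leaving out any 1 library ended the call, where 0 to 187 of all genes tested were called, against 320 in the main test.

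Of 37 tested NF-kB target genes (of 40 listed), 3 were higher, 1 was lower and 33 did not pass (all genes tested: 0.821% higher, 1.59% lower), with a median log2 fold change of 0.39 against 0.05 over all genes. The genes that rose were Saa3, an acute-phase gene (log2 fold change 4.19, SE 0.78, edgeR adjusted p = 0.0363), the neutrophil chemokine gene Cxcl1 (log2 fold change 2.49, SE 0.47) and Tnfsf9, a costimulatory ligand of the TNF family (log2 fold change 2.03, SE 0.38). Saa3 was at 168, 40.2 and 89.6 CPM in aOX40 and at 3.82, 1.22, 2.07, 14.7 and 5.49 CPM in IgG, so that its levels differed widely within each group while the groups stayed apart. Cxcl1 was at 55.6, 35.9 and 115 CPM in aOX40 and at 5.11, 11.9, 9.58, 13.1 and 21.3 CPM in IgG, also without overlap. Tnfsf9 was at 14.2, 9.65 and 21.5 CPM in aOX40 and at 2.89, 4.30, 2.38, 3.56 and 5.38 CPM in IgG, without overlap. Plaur, the urokinase receptor gene, fell (log2 fold change -1.34, SE 0.26) and was at 3442, 2425 and 3945 CPM in aOX40 and between 5628 and 11001 CPM in IgG. The cytokine genes Tnf and Il1b differed from each other: Tnf was at 507, 285 and 419 CPM in aOX40 and at 26.4, 194, 124, 151 and 188 CPM in IgG, without overlap, yet its log2 fold change of 1.56 (SE 0.51) did not pass (edgeR adjusted p = 0.148). Il1b was at 12140, 8496 and 15469 CPM in aOX40, within or below the IgG range of 10938 to 21958 CPM (log2 fold change -0.31, SE 0.28). Over the 18 alternatives, Saa3 and Cxcl1 were called in 10 each and Tnfsf9 and Plaur in 9 each. In 3 of the 18, no gene at all was called. In all, 8 genes passed of the lists of 28, 21, 18 and 37 tested genes, where 2.41% of all genes did. In the same order, 6, 2, 7 and 12 genes did not overlap between the groups in either direction, against 16% of all genes tested. At an unadjusted p below 0.05 in edgeR the counts were 5, 2, 9 and 13, against 17.8%. With legacy off in edgeR 15 passed, where 5.65% of all genes did. None passed without aOX40 replicate 2 or without aOX40 replicate 3, where no gene at all was called. The lists were chosen with earlier results of these data known, so their counts and medians do not test them against all genes.

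**Figure D4:**
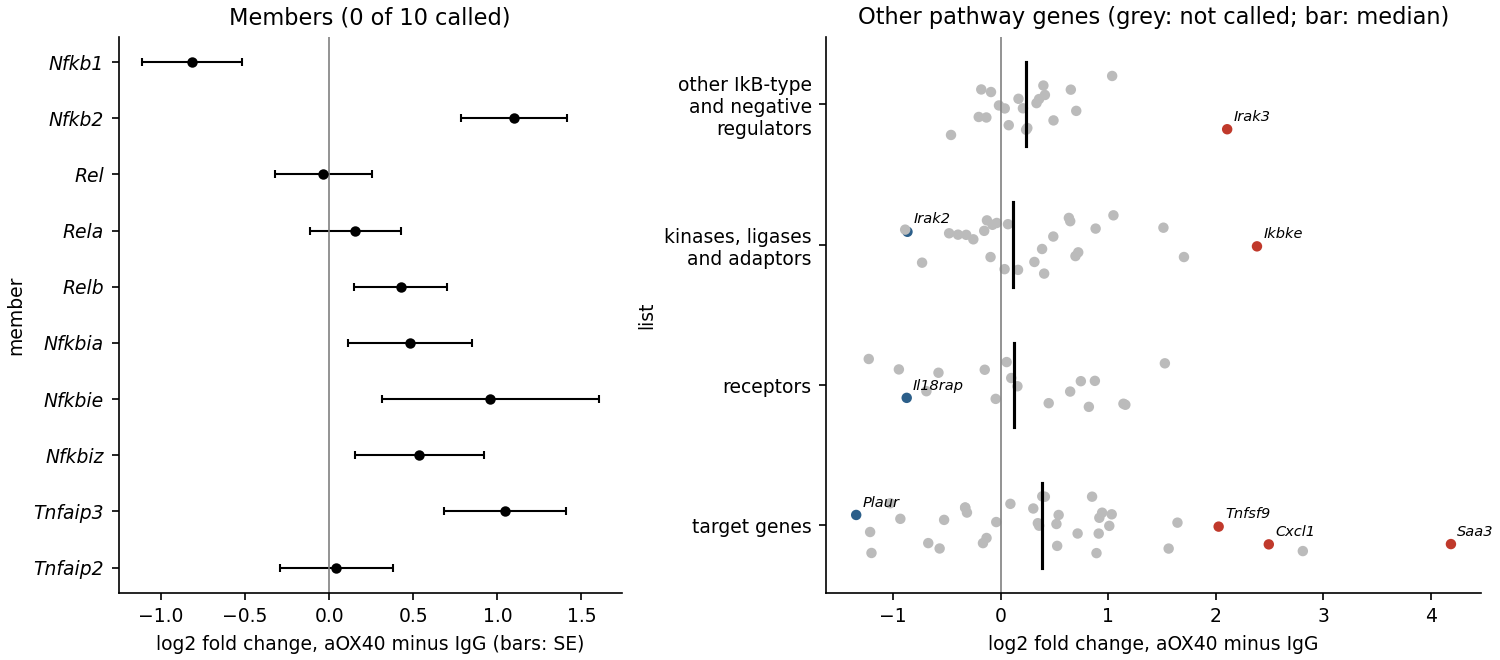
Left, log2 fold change of aOX40 against IgG for the 10 members with its SE; right, the same for the tested genes of 4 other pathway lists, with genes that rose in red, genes that fell in blue, genes not called in grey and a bar at each list's median. Nfkb1 and Nfkb2 lie on opposite sides of 0, and 8 genes of the lists passed the test.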

How the data were processed

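RNA was measured by sequencing in 8 neutrophil libraries, grouped by the sample titles into 3 aOX40 and 5 IgG libraries. The authors deposited 1 table of estimated counts by gene symbol, not scaled between libraries; 63.4% of values were whole within 0.01, and no source used here says how the fractions arose. Per the submitters' processing notes, STAR 2.6.0, Subread and featureCounts 1.5.1 were used with genome build mm10; the annotation and strand setting are not stated.

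Estimated counts were rounded. Genes were filtered with filterByExpr by group and scaled with TMM factors, and the main test was the quasi-likelihood F test of edgeR 4.0.16 at default settings, run in R 4.3.3 with limma 3.58.1. The model held the group alone, with Benjamini-Hochberg adjustment over 13278 genes. SEs were derived from the F statistic. Read depth was 52.7 to 73.5 M counts; no molecular identifiers are described, so reads may repeat a molecule and counting intervals are not given. Alternatives were other scaling factors and filters, DESeq2 1.42.0, limma voom, robust dispersions, the replicate number as a block, and each library left out; legacy off in edgeR was added after the data were seen.

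The procedure was run on simulated data as a check of the code, and no result here rests on it. Positions and exon lengths came from GENCODE M21 on GRCm38, the assembly of mm10. Of the 10 members, 0 had a near copy (BLAST 2.17.0, 95% or more identity along 50% or more of the longest transcript). All 10 members are named whatever their values, with up to 5 called genes of each of 4 pathway lists and 9 fixed pathway genes. The members and lists were chosen with earlier results of these data known.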

Additional observations from a re-analysis of the deposited data

Results flagged for a closer look

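Of 28 sets of 5 IgG values examined (27 named genes and the Nfkb2 to Nfkb1 ratio), 2 held a library far from the others, where chance gives about 1 in 20. Irak2 was at 686.2 CPM in IgG replicate 2, with the next library at 518 CPM. Map3k14 was at 12.25 CPM in IgG replicate 6, with the next library at 24.9 CPM. None of the 10 members had such a library among the IgG libraries, and the aOX40 libraries were not examined in this way.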

How the results depend on the processing

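The number of members called stayed at 0 in 17 of 18 alternative analyses and was 3 with DESeq2. The number of all genes called was 320, of which 34.1% were higher. It was 172 with no filter, 1433 with DESeq2, 724 with limma voom, 750 with legacy off in edgeR, and from 0 to 187 with 1 library left out. With total counts alone, which raised the median log2 fold change by 0.30, 71.1% of 384 calls were higher; the share was 46.3% with limma voom and 46.8% with legacy off. The 8 called list members became 24 with DESeq2, 13 with limma voom, 15 with legacy off and 0 to 3 with 1 library left out; without aOX40 replicate 2 or 3 no gene was called at all (edgeR). With the replicate number as a block, 0 genes and 0 list members were called. Only the numbers 2 and 3 are in both groups, and the deviations of same-numbered libraries correlated at 0.022 and 0.047. Those of libraries with different numbers correlated at -0.044 to 0.031. With the block Nfkbie was at 1.94 and Relb at 0.15. The signs of Nfkb1, Nfkb2, Relb, Nfkbia, Nfkbie and Tnfaip3 held in all 18 alternatives. Rel turned to 0.25 with total counts alone, 0.0118 with limma voom and 0.16 with the block; leaving out 1 library gave -0.19 to 0.12, being 0.07 without aOX40 replicate 1, 0.02 without aOX40 replicate 2, 0.12 without IgG replicate 3 and 0.04 without IgG replicate 6. Without aOX40 replicate 3, Rela turned to -0.20, Nfkbiz to -0.15, Tnfaip2 to -0.36, Bcl3 to -0.10 and Nfkbib to -0.02. Over all single libraries left out, the ranges were up to 0.35 for Rela, 0.82 for Nfkbiz, 0.24 for Tnfaip2, 0.45 for Bcl3 and 0.35 for Nfkbib, and -0.33 to 0.0054 for Chuk. Tnfaip2 was -0.0188 with upper quartile factors, -0.10 without IgG replicate 2 and -0.03 without IgG replicate 5. Ikbkb was 0.0537 and Chuk 0.19 with total counts alone, and Chuk was 0.0069 with limma voom and 0.0054 without IgG replicate 2. Nfkbib was -0.10 with the block, -0.14 without aOX40 replicate 1 and -0.01 without IgG replicate 4. These are log2 fold changes, and the cause was not tested. With 3 and 5 libraries, small differences were not detectable, and some larger ones did not pass either. Nfkb2 at 1.10 (edgeR adjusted p = 0.104) and Tnf at 1.56 (edgeR adjusted p = 0.148) were without overlap and not called.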
